A study of Mus musculus with 3 samples.

Results

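The mitochondrial ribosomal protein genes were the 78 protein-coding genes of the FPKM table whose symbol begins with Mrpl or Mrps followed by a digit, out of 22046 protein-coding genes and 54532 genes in all. FPKM is a fragment count divided by gene length in kilobases and by library size. Of the 78, 49 are named Mrpl and 29 Mrps. Hippocampal RNA of 10-month-old mice on a C57BL/6 background was sequenced in 3 libraries, 1 per genotype. The genotypes were WT, PS19, and PS19 with the label Zbp1+/-, written PS19 Zbp1+/- here. PS19 is a transgenic line that makes a mutant human tau from the mouse prion protein promoter, and Zbp1 encodes a sensor of Z-form nucleic acid. The PS19 and PS19 Zbp1+/- libraries share the PS19 genotype, and none of the 3 libraries is labelled Zbp1+/- without PS19. The labels give neither sex nor pooling of animals. With 1 library per genotype there is no replicate error and no test between genotypes. Every interval below is an exact 95% interval that covers counting error only, and every difference compares libraries.

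The mitochondrial ribosome translates the few membrane proteins encoded by mitochondrial DNA, all of them subunits of the respiratory chain and the ATP synthase. Its 2 ribosomal RNAs come from mitochondrial DNA, whereas all its proteins are encoded in the nucleus, translated in the cytosol and imported. Some of these proteins descend from bacterial ribosomal proteins and others were added in mitochondria. Neurons depend heavily on the respiratory chain for synaptic transmission, and inherited defects of several of these genes cause combined respiratory chain deficiency.

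By known place in the ribosome, 51 members belong to the large subunit (30 with a bacterial counterpart and 21 specific to mitochondria) and 26 to the small subunit (16 and 10). The split in parentheses follows protein names and need not match descent. Mrps30 and Mrps18a carry a small subunit name but sit in the large subunit and were counted there. Mrps36 is known as a subunit of the 2-oxoglutarate dehydrogenase complex and was kept apart. The members lie on 17 chromosomes. An FPKM of at least 1 was reached in all 3 libraries by 77 of 78. The exception, Mrpl53, had 0 reads in each library, which allows up to 3 reads in each. In GENCODE M21, 88.0% of its exon bases lie in exons of Gm42688, a protein-coding gene on the same strand, and WT, PS19 and PS19 Zbp1+/- gave that gene 20, 23 and 16 reads.

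Promoter sequence was matched for 69 of the 78 members in RefSeq (GRCm38.p6). The windows of 22 of these 69 (31.9%) overlapped the window of another protein-coding gene on the opposite strand, against 10.9% of 10077 expressed protein-coding genes, each window running from 250 bases before to 50 after the gene start. One such pair, Mrpl46 and Mrps11 on chromosome 7, consists of 2 members. The following upstream stretches are the parts of the 250 bases that lie in no GENCODE M21 exon. They are shown for 2 members that face another gene of mitochondrial translation or DNA upkeep (Mrpl43 faces Twnk, the mitochondrial DNA helicase, and Mrps12 faces Sars2, the mitochondrial seryl-tRNA synthetase) and for 4 members among those with the largest differences between libraries. Each is printed 5′ to 3′ on the gene's strand, and capitals mark matches to the motifs described after them.
Mrpl43, chr19:45006443-45006557, minus strand: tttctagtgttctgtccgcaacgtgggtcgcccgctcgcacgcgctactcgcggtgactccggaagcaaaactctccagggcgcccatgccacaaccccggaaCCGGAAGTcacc
Mrps12, chr7:28741822-28741991, minus strand: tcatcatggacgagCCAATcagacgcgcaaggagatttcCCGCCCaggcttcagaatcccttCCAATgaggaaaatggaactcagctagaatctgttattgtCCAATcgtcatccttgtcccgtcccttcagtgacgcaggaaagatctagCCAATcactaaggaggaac
Mrps27, chr13:99344706-99344785, plus strand: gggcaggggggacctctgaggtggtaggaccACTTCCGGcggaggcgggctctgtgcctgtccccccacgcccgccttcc
Mrps33, chr6:39810989-39811186, minus strand: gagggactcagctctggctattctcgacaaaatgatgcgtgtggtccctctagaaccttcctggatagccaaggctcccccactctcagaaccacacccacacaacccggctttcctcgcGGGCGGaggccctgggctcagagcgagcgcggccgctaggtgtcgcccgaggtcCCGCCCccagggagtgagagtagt
Mrps14, chr1:160194965-160195214, plus strand: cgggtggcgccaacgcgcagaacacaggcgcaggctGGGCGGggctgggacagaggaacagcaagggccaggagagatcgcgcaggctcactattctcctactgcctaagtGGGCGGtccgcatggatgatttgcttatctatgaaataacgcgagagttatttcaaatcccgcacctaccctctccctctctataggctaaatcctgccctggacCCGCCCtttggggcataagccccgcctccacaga
Mrps2, chr2:28467816-28468065, plus strand: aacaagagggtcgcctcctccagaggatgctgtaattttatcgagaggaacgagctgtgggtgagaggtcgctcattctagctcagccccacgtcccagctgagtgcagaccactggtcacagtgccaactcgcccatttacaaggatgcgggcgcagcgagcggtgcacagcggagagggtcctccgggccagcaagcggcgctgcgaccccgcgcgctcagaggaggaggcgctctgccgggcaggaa

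Motifs were searched on both strands of the whole windows. The ETS letters CCGGAAGT, the core recognised by the mitochondrial gene activator GABPA, stood in 17.4% of members, against 8.51% of 10009 other expressed genes and 4.31% of all 27025 symbols of the promoter table. The YY1 letters AAGATGGC stood in 17.4% of members against 4.95% and 3.19%. The letters GCGCATGC, read by NRF1, a factor of nuclear genes for mitochondria, stood in 11.6% against 5.79% and 3.05%. The GC box GGGCGG was less frequent in members (49.3%) than in other expressed genes (69.6%). CCAAT stood in 39.1% of members and 42.5% of other expressed genes, and TATAAA in 7.25% and 8.58%. No 2 of these motifs contain each other. The members with YY1 letters had a median difference of -0.22 for PS19 minus WT on the log2(FPKM + 1) scale, and those without had -0.24. For the ETS letters these medians were -0.21 and -0.24. Larger gaps stood in the other comparisons. For PS19 Zbp1+/- minus PS19, in the deposited scale, the median was 0.28 for 12 members with YY1 letters and 0.15 for 56 without. For PS19 Zbp1+/- minus WT, it was -0.19 for 26 members with CCAAT and 0.02 for 42 without. In that comparison it was 0.03 with the GC box and -0.13 without, and -0.19 with NRF1 letters and -0.03 without. These gaps were picked after the values were seen, and none was tested.

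The 3 libraries held 16400328 to 17109734 reads, recovered from the deposited values. The count of Zbp1 itself was 5 reads for WT, 91 for PS19 and 0 for PS19 Zbp1+/-, where 0 reads allow up to 3. A Zbp1+/- animal would keep 1 allele, and with so few reads in WT the count does not settle the genotype of that library, which is named here by its label. All 8 neuron markers were detected in each library. Markers of choroid plexus, a tissue that borders the hippocampus, were far lower in PS19 Zbp1+/-, with Ttr, which carries thyroid hormone, at 3036, 1842 and 7.05 FPKM in WT, PS19 and PS19 Zbp1+/-. Microglial and astrocyte lists were higher in PS19 than in both other libraries. Their part in the differences below was not tested, and in bulk RNA fewer cells of a type and less RNA per cell cannot be told apart.

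Mitochondrial ribosomal protein transcripts were moderately abundant. Their FPKM ran from 1.84 to 50.8 with a median of 11.6 in WT, from 1.48 to 41.4 with a median of 9.01 in PS19, and from 1.501 to 44.0 with a median of 10.2 in PS19 Zbp1+/-. Summed over members, FPKM reached 1028 for WT, 834.4 for PS19 and 970.7 for PS19 Zbp1+/-. In reads, the members held 37501, 31107 and 33179 of the 3 libraries. In deposited FPKM and in reads PS19 thus had the lowest sum, and WT the highest. The order of PS19 and PS19 Zbp1+/- depends on the scaling. After rescaling each library to the same sum of FPKM, the members' median for PS19 Zbp1+/- minus PS19 was -0.05.

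The level per length went with gene length. Mean FPKM over the 3 libraries spanned 28.2-fold among the 77 members with reads, whereas mean reads spanned 8.36-fold. Across these 77 genes, Spearman's rho of gene length was -0.78 with mean FPKM and 0.28 with mean reads, a description over genes of the same 3 libraries. Members were short, with a median length of 2255 bases against 4410 for all genes tested.

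Mrpl41, a mitochondria-specific large subunit protein, had the highest mean, at 50.8 FPKM in WT against 41.4 in PS19 and 44.0 in PS19 Zbp1+/-. Mrps12, the counterpart of a bacterial protein at the decoding centre, followed with 35.1, 25.4 and 36.3 FPKM in the same order. Next came Mrpl28, also with a bacterial counterpart, at 33.1, 27.1 and 35.9 FPKM. In these last 2 genes PS19 was the low library, and WT and PS19 Zbp1+/- were close together. Mrpl43 had 33.6, 24.8 and 36.8 FPKM, and Mrps21, a small subunit protein of bacterial type, 38.0, 26.7 and 26.6 FPKM. In the deposited scale Mrps21 was thus alike in both PS19 libraries, and after rescaling to the same sum PS19 Zbp1+/- lay below PS19 by a difference of -0.281. At the bottom of the order stood Mrpl33 with 1.84, 1.48 and 1.501 FPKM, Mrps35 with 2.46, 1.82 and 1.94, and Mrps30 with 2.68, 2.13 and 2.14. All 3 of these long or little read genes had their highest value in WT.

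**Figure D1:**
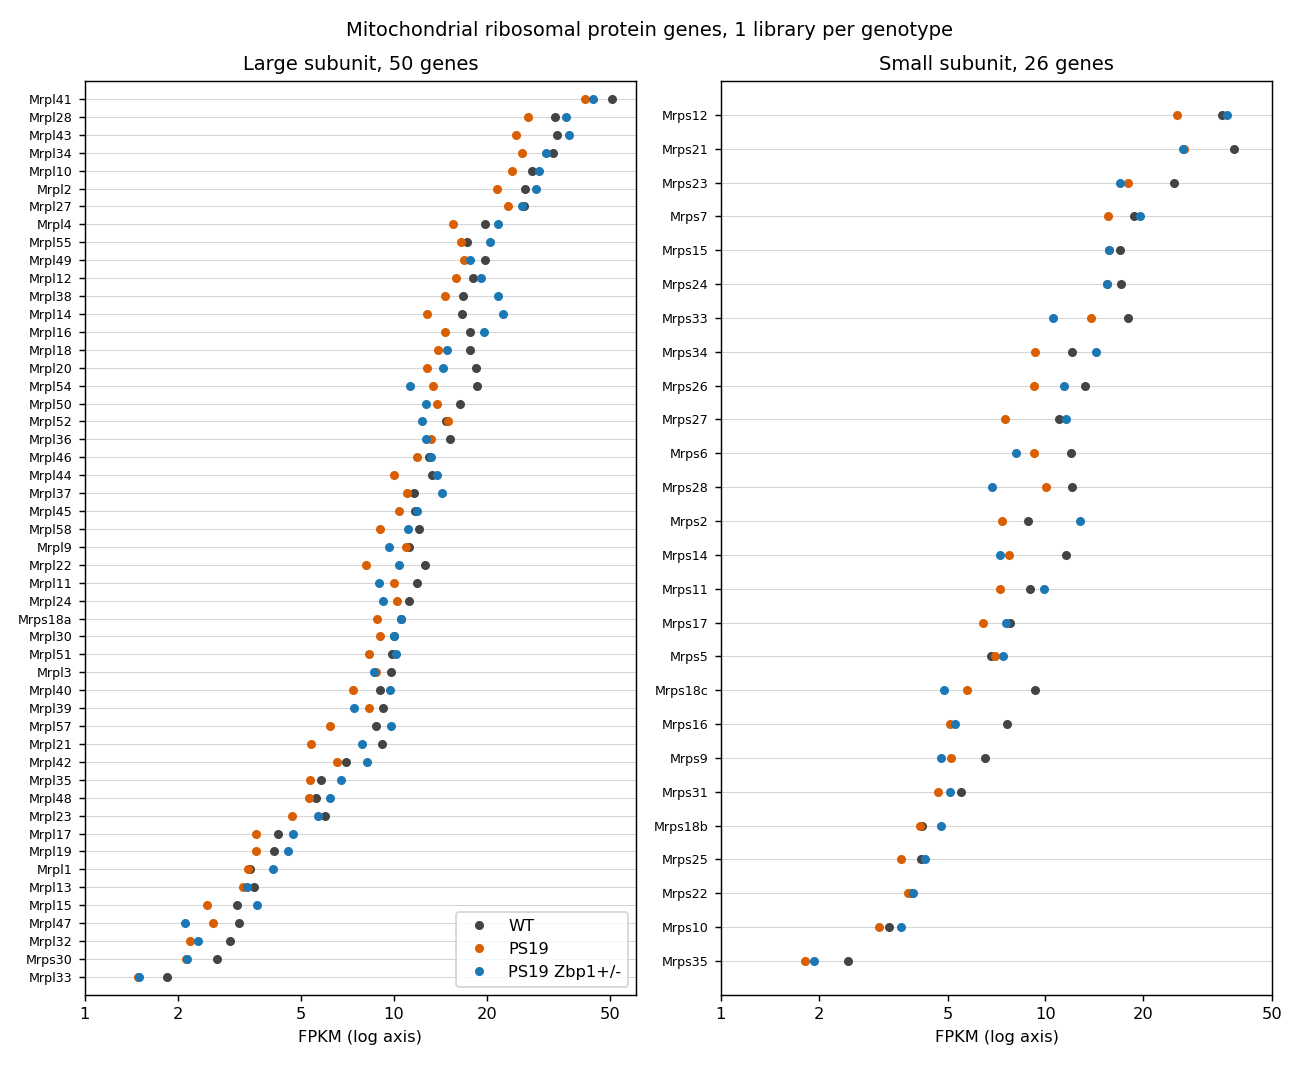
FPKM of each mitochondrial ribosomal protein gene with reads (log axis), for the large subunit (left, 50 genes) and the small subunit (right, 26 genes), 1 point per library. The PS19 point lies to the left of the WT point in 49 of 50 large and 25 of 26 small subunit genes.

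PS19 was compared with WT to see how the mitochondrial ribosome's transcripts stand in a tau transgenic hippocampus. Nearly all members were lower in PS19: 75 of 77 lay below WT, where 53.7% of 12703 protein-coding genes did. The differences were small and alike. The median difference of log2(FPKM + 1) was -0.24, against -0.03 over all genes tested, and it ran from -0.67 to 0.04. Summed over members, reads per library size in PS19 were 0.828 of WT (0.815 to 0.840). At a threshold of 1.3-fold, 16 of 77 members (20.8%) were lower, beside 10.1% of all genes, and 0 were higher, beside 12.1% of all genes. At 2-fold, 0 members passed in either direction, beside 0.291% of all genes lower and 2.2% higher. Rescaling to the same sum moved the count lower at 1.3-fold from 16 to 7, beside 5.16% of all genes. It moved the median from -0.24 to -0.13, with 0.08 for all genes.

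Both subunits and both kinds of protein took part. In the large subunit, all 30 members of bacterial type were lower, with a median of -0.21, as were 19 of 20 mitochondria-specific ones, with a median of -0.23. In the small subunit, 15 of 16 of bacterial type were lower with a median of -0.27, and all 10 mitochondria-specific ones with a median of -0.32. Reads per library size were 0.844 of WT (0.829 to 0.860) for the large subunit and 0.799 (0.778 to 0.820) for the small subunit. The small subunit ratio lay below the large one, and their counting intervals did not overlap.

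The 5 largest decreases included genes of both subunits. Mrpl21 (chr19:3282901-3292837 in the table), a large subunit protein of bacterial type, had 9.17 FPKM in WT against 5.41 in PS19 and 7.89 in PS19 Zbp1+/-. PS19 was 0.590 of WT (0.490 to 0.709), the lowest ratio of any member. Mrpl21 shares 117 exon bases with Ighmbp2 on the other strand, so part of its reads may belong to that gene. Mrps18c (chr5:100798627-100804471), a small subunit protein of bacterial type, had 9.32, 5.75 and 4.87 FPKM, and its PS19 to WT ratio was 0.617 (0.480 to 0.790) on 107 and 173 reads.

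Mrpl22, whose bacterial counterpart lines the peptide exit tunnel, had 12.6, 8.14 and 10.4 FPKM in WT, PS19 and PS19 Zbp1+/-, and PS19 was 0.647 of WT (0.518 to 0.805). Mrps14 had 11.6, 7.71 and 7.23 FPKM, with a ratio of 0.664 (0.587 to 0.751). Mrps16 had 7.64, 5.07 and 5.27 FPKM, also with 0.664 (0.564 to 0.780). Mrps14 and Mrps16 are small subunit proteins of bacterial type, and both were low in the 2 PS19 libraries, while Mrpl22 lay between in PS19 Zbp1+/-.

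The other 11 members past 1.3-fold were Mrps36, Mrps27, Mrps21, Mrpl20, Mrps26, Mrps12, Mrps23, Mrpl54, Mrpl57, Mrpl43 and Mrpl58. Mrpl58 is the peptidyl-tRNA hydrolase that rescues stalled mitochondrial ribosomes. It had 12.1 FPKM in WT against 9.01 in PS19 and 11.1 in PS19 Zbp1+/-. Just outside the threshold lay Mrpl44, a protein with a ribonuclease III fold, at a difference of -0.375, where the threshold is 0.3785, and 13.3, 9.99 and 13.8 FPKM.

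In the deposited scale, Mrps5 and Mrpl52 were the 2 members above WT in PS19. After rescaling each library to the same sum, 15 of 77 were above WT, among them Mrps18b (0.086), Mrpl55 (0.068) and Mrpl37 (0.05 on the log2 scale). Mrps5 had 6.81 FPKM in WT against 7.02 in PS19 and 7.42 in PS19 Zbp1+/-, with a PS19 to WT ratio of 1.03 (0.932 to 1.14). Mrpl52 had 14.7, 14.9 and 12.3 FPKM, with a ratio of 1.02 (0.859 to 1.20). Neither difference exceeded counting error.

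Part of this shift was shared by short genes in general. Over all genes tested, the median PS19 minus WT difference ran from -0.25 in the shortest of 10 bins of gene length to 0.14 in the longest. Among genes no longer than the median member, 71.0% of 2158 were lower in PS19 and 27.99% passed 1.3-fold, against 38 and 11 of 39 members (97.4% and 28.2%). Among longer genes, 50.1% of 10545 were lower and 6.40% passed, against 37 and 5 of 38 members (97.4% and 13.2%). The share called lower in short members was therefore that of short genes, while members of either length were lower by some amount more often than genes of like length. After subtracting the median of genes of like length, the members' median was -0.11, with 62 of 77 lower. Then 4 of 77 passed 1.3-fold lower, beside 5.57% of all genes, so the share called was near that of all genes. The part of gene length in the members' differences beyond this subtraction was not tested.

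**Figure D2:**
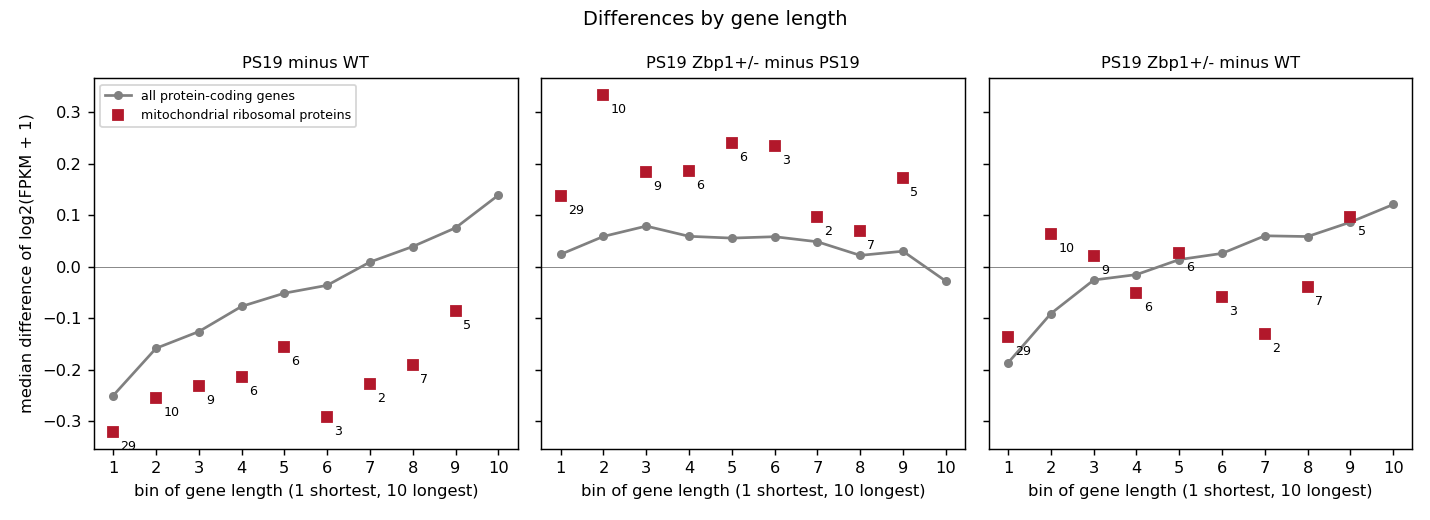
Median difference of log2(FPKM + 1) in 10 bins of gene length, for all protein-coding genes tested (grey) and for the members (red, with their number in each bin). For PS19 minus WT the grey line rises from -0.25 to 0.14 and each member median lies below it. For PS19 Zbp1+/- minus PS19 each member median lies above the grey line as deposited, though both fall when libraries are rescaled to the same sum.

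The comparison of PS19 Zbp1+/- with PS19 asks how the label Zbp1+/- goes with these transcripts on a PS19 background. In the deposited scale, 59 of 77 members were higher in PS19 Zbp1+/-, beside 53.7% of 12772 genes, with a median difference of 0.18 against 0.04 over all genes. That direction depends on the scaling, since the FPKM of all genes summed to 277900 for WT, 254200 for PS19 and 309900 for PS19 Zbp1+/-. With each library rescaled to the same sum of FPKM, the members' median was -0.05, with 48 of 77 lower, and that of all genes -0.20. That rescaling applies a single factor per library, so it could hardly change the distance between members and all genes. This distance was 0.14 before and 0.15 after. It was 0.067 among genes with a mean FPKM of at least 5, where 63 members had a median of 0.20 and all genes 0.13. At 1.3-fold in the deposited scale, 16 members (20.8%) were higher, beside 20.3% of all genes, and 1 (1.299%) was lower, beside 19.7%. The share higher was that of all genes. Rescaling moved these counts to 2 higher, beside 7.96% of all genes, and 11 lower, beside 34.6%. It moved the share of higher genes among all genes past 1.3-fold from 50.7% to 18.7%. For PS19 minus WT the same rescaling moved that share from 54.5% to 77.5%, and 62 of 77 members were then lower.

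In the deposited scale the large subunit had a median of 0.23, with 40 of 50 higher and 11 past 1.3-fold. The small subunit had a median of 0.06, with 18 of 26 higher, 5 past 1.3-fold higher and 1 lower. Of all genes, 53.7% were higher, 20.3% passed 1.3-fold higher and 19.7% lower. The share past 1.3-fold higher was thus near that of all genes in both subunits. Both medians depend on the scaling. Reads per library size were 1.18 times PS19 (1.16 to 1.20) for the large subunit and 1.13 (1.10 to 1.17) for the small. The 2 intervals overlapped. Small subunit members of bacterial type had a median of 0.03, near that of all genes.

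Mrpl14 (chr17:45686322-45698495), a large subunit protein of bacterial type, differed most. It had 16.6 FPKM in WT against 12.8 in PS19 and 22.5 in PS19 Zbp1+/-, on 271, 210 and 338 reads, and the ratio of PS19 Zbp1+/- to PS19 was 1.76 (1.48 to 2.10). It shares 106 exon bases with Tmem63b on the other strand, a gene with 2108 to 2460 reads per library, so reads of both genes may be mixed. Mrps2 (chr2:28468066-28471178), of bacterial type in the small subunit, had 8.86, 7.35 and 12.8 FPKM and a ratio of 1.73 (1.52 to 1.98), with no overlapping protein-coding gene. In both genes PS19 Zbp1+/- was the high library and PS19 the low one. They were the 2 members still past 1.3-fold higher after rescaling to the same sum, with differences of 0.499 for Mrpl14 and 0.461 for Mrps2.

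Mrpl57, a mitochondria-specific large subunit protein, had 8.75 FPKM in WT against 6.22 in PS19 and 9.81 in PS19 Zbp1+/-, with a PS19 Zbp1+/- to PS19 ratio of 1.58 (1.36 to 1.82). Mrps34 had 12.1, 9.30 and 14.3 FPKM and a ratio of 1.54 (1.33 to 1.77), but 63.4% of its exon bases lie in exons of Mapk8ip3 on the other strand. Mrps27, a small subunit protein of the pentatricopeptide repeat family, had 11.1, 7.52 and 11.6 FPKM and a ratio of 1.55 (1.32 to 1.81). In each of these 3 PS19 was the low library. The PS19 Zbp1+/- to WT interval included 1 for Mrpl57, at 1.12 (0.983 to 1.28), and for Mrps27, at 1.05 (0.912 to 1.21). For Mrps34 it did not, and PS19 Zbp1+/- lay above WT, at 1.18 (1.03 to 1.35).

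Lowest in PS19 Zbp1+/- against PS19 was Mrps28 (chr3:8802146-8923918), a small subunit protein of bacterial type, with 12.1 FPKM in WT against 10.1 in PS19 and 6.86 in PS19 Zbp1+/- and a ratio of 0.683 (0.514 to 0.902). Mrps33 had 18.0, 13.9 and 10.6 FPKM and a ratio of 0.762 (0.652 to 0.890). The processed pseudogene Gm5776, 99.7% identical over 321 bases, held 62, 54 and 26 reads beside the 519, 400 and 279 of Mrps33, so these reads may be divided between them. Mrpl52 had a ratio of 0.825 (0.688 to 0.988). Mrpl54, a mitochondria-specific large subunit protein, had 18.6, 13.4 and 11.3 FPKM and a ratio of 0.841 (0.673 to 1.05), and Mrpl47 had 3.16, 2.59 and 2.10 FPKM and 0.811 (0.651 to 1.01). The last 2 intervals included 1. Mrps28, Mrps33, Mrpl54 and Mrpl47 were highest in WT and lowest in PS19 Zbp1+/-.

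All 8 members on chromosome 17 were higher in PS19 Zbp1+/- than in PS19 in the deposited scale, where 53.7% of all genes were higher. Their median was 0.31, and the other 69 had a median of 0.14. After rescaling to the same sum, Mrps18a and Mrps18b on that chromosome were lower, at -0.028 and -0.052. Mrpl18 and Mrps10 on that chromosome were then lower as well, Mrpl18 by the most. These 8 include Mrpl14, Mrpl28, Mrps34, Mrps18a and Mrps18b, and the grouping by chromosome was chosen after the values were seen.

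Set against WT, PS19 Zbp1+/- had 36 of 77 members higher, beside 51.0% of 12436 genes, and a median difference of -0.04 against 0.01 for all genes. Reads per library size were 0.964 of WT (0.9503 to 0.979). At 1.3-fold, 2 members (2.60%) were higher, beside 16.6% of all genes, and 12 (15.6%) were lower, beside 14.7%. The share lower was close to that of all genes, and the share higher was below it. Under rescaling to the same sum the counts were 0 higher, beside 9.39% of all genes, and 20 lower, beside 23.3%. The members' median was then -0.17 beside -0.12 for all genes. Among all genes past 1.3-fold, the share higher moved from 53.0% to 28.7%.

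The 12 lower members were mostly small subunit genes: 9 of 26 small subunit members, 2 of 50 large subunit members (Mrpl54 and Mrpl47) and Mrps36. Of all genes, 14.7% were lower at 1.3-fold. The small subunit genes were Mrps18c, Mrps28, Mrps33, Mrps14, Mrps23, Mrps6, Mrps21, Mrps16 and Mrps9. Mrps18c was lowest, at 0.523 of WT (0.398 to 0.683), followed by Mrps28 at 0.568 (0.432 to 0.743), Mrps33 at 0.586 (0.505 to 0.679), Mrpl54 at 0.605 (0.491 to 0.742) and Mrps14 at 0.624 (0.548 to 0.709). Reads per library size were 0.905 of WT (0.882 to 0.929) for the small subunit and 0.997 (0.979 to 1.02) for the large subunit, and these intervals did not overlap. Mrps6 shares exon bases with Slc5a3 on the same strand, so its reads are uncertain.

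The 2 members past 1.3-fold above WT were Mrps2, at 1.44 times WT (1.27 to 1.63), and Mrpl14, at 1.36 (1.16 to 1.601). The next 3 were large subunit proteins, Mrpl38 and Mrpl37 specific to mitochondria and Mrpl55 grouped with the bacterial type. Mrpl38 had 16.7 FPKM in WT against 14.6 in PS19 and 21.7 in PS19 Zbp1+/- and a PS19 Zbp1+/- to WT ratio of 1.3 (1.18 to 1.43). Mrpl37 had 11.6, 11.04 and 14.3 FPKM and a ratio of 1.23 (1.13 to 1.35), and Mrpl55 17.2, 16.5 and 20.5 FPKM and 1.19 (1.02 to 1.40). In the deposited scale all 3 were highest in PS19 Zbp1+/- and lowest in PS19, whereas after rescaling PS19 lay above WT in Mrpl37 and Mrpl55.

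**Figure D3:**
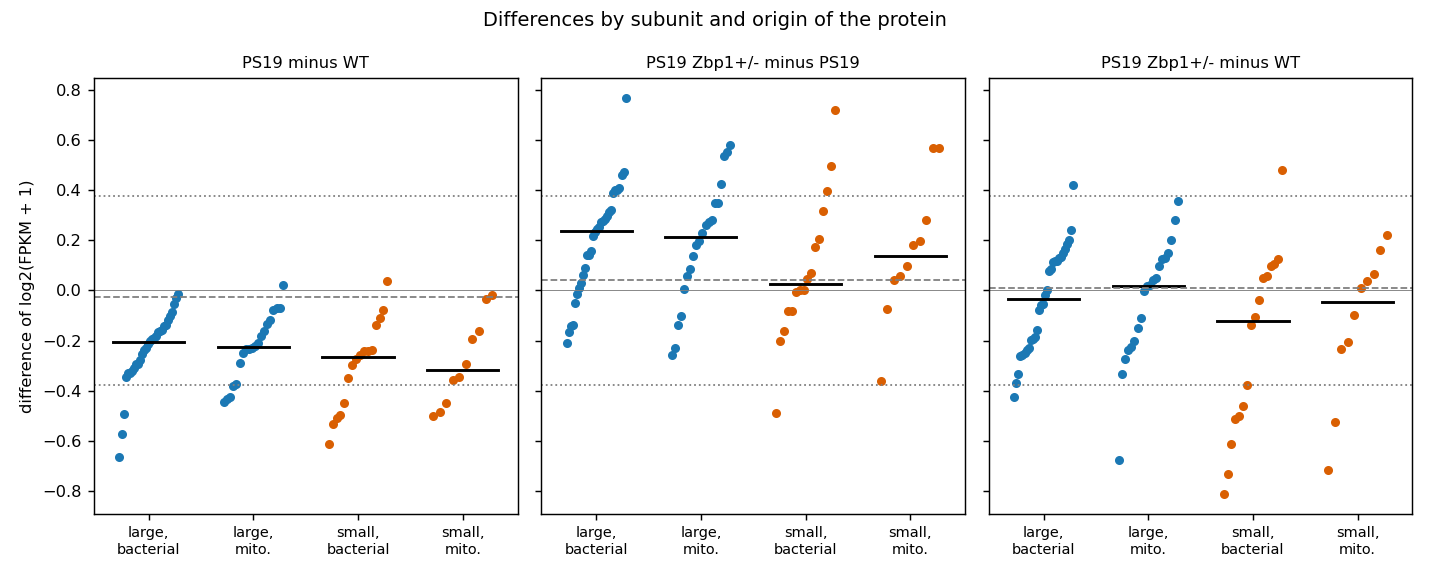
Difference of log2(FPKM + 1) for each member with reads, by subunit and by bacterial or mitochondria-specific kind, in the 3 comparisons. Solid bars are medians, the dashed line is the median of all protein-coding genes and the dotted lines mark 1.3-fold. Points of PS19 minus WT lie below 0 except 2 in the deposited scale (15 after rescaling to the same sum), and the small subunit points reach -0.81 in PS19 Zbp1+/- minus WT. Points above 0 in the middle panel hold for the deposited scale, where the median is 0.18, and the median is -0.05 after rescaling to the same sum.

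Taken over the 3 libraries at once, PS19 was the lowest library for 58 of 77 members (75.3%), against 37.8% of 12875 genes, and the highest for 1. The order with PS19 Zbp1+/- highest and PS19 lowest held for 35 members (45.5%, against 24.3% of all genes), WT highest and PS19 lowest for 23 (29.9% against 13.5%), and WT highest and PS19 Zbp1+/- lowest for 17 (22.1% against 15.8%). These counts use the deposited scale, on which the distance between the PS19 Zbp1+/- library and the others depends.

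The 3 paralogues of the Mrps18 family, which descend from 1 bacterial ribosomal protein and occupy different places in the ribosome, did not move alike. By protein name, Mrps18a and Mrps18b were counted as specific to mitochondria despite this descent. Mrps18a, in the large subunit, had 10.6 FPKM in WT against 8.84 in PS19 and 10.6 in PS19 Zbp1+/-. Mrps18b, in the small subunit, had 4.16, 4.10 and 4.78 FPKM, and its PS19 to WT ratio of 0.985 (0.779 to 1.24) included 1. Its pseudogene Gm13552, 99.8% identical over 417 bases, held 18, 19 and 14 reads, so the 150, 148 and 158 reads of Mrps18b are uncertain. Mrps18c, with 9.32, 5.75 and 4.87 FPKM, was lower in both PS19 libraries. Its PS19 Zbp1+/- to WT interval did not overlap those of Mrps18a, 0.998 (0.893 to 1.12), and Mrps18b, 1.15 (0.912 to 1.44). Of the exon bases of Mrps18c, 23.2% lie in exons of Gm43511 on the same strand, which held 8, 16 and 4 reads. Its pseudogene Gm15946, 94.6% identical over 423 bases, held 0, 3 and 9 reads. The 173, 107 and 83 reads of Mrps18c are therefore uncertain too.

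In the 21 head-to-head pairs, the member and its neighbour were both lower in PS19 than in WT in 15, where 20 members and 15 neighbours were lower. The neighbours had a median difference of -0.14 and the members -0.26. Neighbours were counted without the filter of 1 FPKM, and Eme1, Ska3 and Cyb5rl stayed below it in every library. Eme1, with 3 reads in WT and 1 in PS19, and Ska3, with 20 and 13, were among the lower neighbours. Both were among the higher ones for PS19 Zbp1+/- minus PS19. Mrpl43 differed by -0.43 and Twnk by -0.14. Mrps12 differed by -0.45 and Sars2 by -0.07. Mrps27 differed by -0.50 and its neighbour Ptcd2, another pentatricopeptide repeat protein, by -0.61, from 18.6 FPKM in WT to 11.9 in PS19. Mrps18c differed by -0.61 while its neighbour Helq, a DNA helicase, differed by 0.10. Sharing a promoter region therefore went with like values in some pairs and not in others. Between PS19 Zbp1+/- and PS19, in the deposited scale, both genes were higher in 13 of the 21 pairs, where 3 members and 6 neighbours were lower. Whether pairs were alike more often than these separate counts alone would give was not tested in either comparison. Mrpl14 differed by 0.77 where Tmem63b differed by 0.33.

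The partners of these proteins were read from lists of the same pathway, in the deposited scale throughout. The 2 mitochondrial ribosomal RNAs, around which the proteins assemble, were lower in PS19 by more than the proteins. The 12S RNA gene mt-Rnr1 had 2698 FPKM in WT against 1572 in PS19 and 3044 in PS19 Zbp1+/-, and the 16S RNA gene mt-Rnr2 had 2452, 1602 and 3072. Together their reads per library size in PS19 were 0.625 of WT (0.619 to 0.631), and in PS19 Zbp1+/- 1.92 times PS19 (1.91 to 1.94). Whether ribosomal RNA was removed is not given in the sources used here.

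The 5 mitoribosome proteins with other names had medians of -0.28 for PS19 minus WT and 0.18 for PS19 Zbp1+/- minus PS19. Gadd45gip1, a large subunit protein, had 7.11, 5.68 and 11.9 FPKM in WT, PS19 and PS19 Zbp1+/-, and Dap3, a GTP-binding protein of the small subunit, 11.3, 9.32 and 12.0. Aurkaip1 had 32.3, 24.9 and 26.1 FPKM, and Chchd1 22.8, 18.1 and 20.6. Ptcd3 had 6.33, 6.12 and 6.096 FPKM. All 5 were lower in PS19 than in WT, and 0 passed 1.3-fold.

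Of 25 assembly factors tested, 21 were lower in PS19 than in WT, beside 53.7% of all genes, and 2 passed 1.3-fold lower, beside 10.1%, with a median of -0.17. These 2 were Mrm2, which methylates the 16S RNA (8.11 FPKM in WT, 4.65 in PS19, 7.31 in PS19 Zbp1+/-), and Mrm3, another methyltransferase of that RNA (6.59, 4.54 and 6.43). Highest against WT were Fastkd2, an RNA-binding protein, with 3.01, 3.82 and 2.84 FPKM, and Rcc1l, with 5.69, 6.29 and 5.87. Between PS19 Zbp1+/- and PS19, 13 of 25 were higher, near the 53.7% of all genes, and 7 passed 1.3-fold, beside 20.3% of all genes, among them the helicases Ddx28 (5.37 to 8.83 FPKM) and Dhx30 (10.5 to 16.4). Mpv17l2 (13.4 to 7.84 FPKM) and Mterf3 (3.92 to 2.39) were the 2 lower. Nsun4, an RNA methyltransferase, had 1.89 FPKM in WT and 3.21 in PS19 Zbp1+/-. Assembly factors thus went both ways in that comparison.

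Translation factors were nearer to WT in PS19, with a median of -0.11 over 14 genes and 0 past 1.3-fold. Tufm, the elongation factor that delivers tRNA, had 26.8, 23.6 and 36.9 FPKM in WT, PS19 and PS19 Zbp1+/-, so PS19 Zbp1+/- was the high library. Mrrf, the recycling factor, had 3.43, 2.84 and 4.64 FPKM, and the release factor genes Mtrf1 and Mtrf1l had 2.91, 2.54 and 4.32 and 2.01, 2.68 and 3.10. Tsfm, the exchange factor of Tufm, had 5.25, 4.44 and 5.27. Mtif2, the initiation factor, had 8.21, 7.46 and 6.67. Guf1 had 4.05, 4.05 and 3.58, and Gfm2 had 4.003, 4.56 and 4.25. Mtif2 and Guf1 were lowest in PS19 Zbp1+/-.

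Among the 17 mitochondrial tRNA synthetases, 15 were lower in PS19 than in WT, beside 53.7% of all genes, and 1, Lars2, passed 1.3-fold lower, beside 10.1%. Lars2 had 9.10, 5.87 and 20.95 FPKM in WT, PS19 and PS19 Zbp1+/-, and its transcripts share a stretch 98.6% identical over 72 bases with the noncoding gene Gm15564, so its reads are uncertain. The others ranged less: Rars2 had 7.45, 5.76 and 4.81 FPKM, Pars2 2.77, 2.09 and 2.35, Sars2 4.04, 3.81 and 5.32, Mars2 2.33, 2.45 and 2.34, and Wars2 1.14, 1.25 and 1.296. In the list for expression of mitochondrial DNA, 7 of 9 genes were lower in PS19, with a median of -0.10. The packaging factor Tfam had 8.59, 7.48 and 7.86 FPKM and the RNA polymerase Polrmt 7.39, 8.21 and 9.87. The termination factor genes Mterf2 and Mterf1b had 4.995, 3.47 and 2.20 and 1.99, 1.73 and 0.231, the latter on 47, 41 and 5 reads. Polg2, a subunit of the mitochondrial DNA polymerase, stayed under 1 FPKM, and Tefm, the elongation factor of Polrmt, had 3.40, 3.21 and 1.73.

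Nuclear genes for respiratory chain subunits, whose partners the mitochondrial ribosome makes, were lower in PS19 by more than the members. Their median was -0.41 over 79 genes, with 76 lower, beside 53.7% of all genes, and 49 past 1.3-fold lower, beside 10.1%. The members had -0.24 with 16 of 77 past 1.3-fold lower. These lists were not matched for gene length, and the part of length in this ranking was not tested. In PS19 Zbp1+/- minus WT the respiratory chain list had a median of -0.27, with 33 past 1.3-fold lower, beside 14.7% of all genes. The members had -0.04 with 12. Cytosolic ribosomal proteins, which share the word ribosome but not the organelle, had -0.27 over 91 genes with 79 lower in PS19 minus WT, and -0.04 in PS19 Zbp1+/- minus WT, both close to the members. The 13 protein-coding genes of mitochondrial DNA, the templates of this ribosome, had -0.21 in PS19 minus WT, and 12 of 13 were higher in PS19 Zbp1+/- than in PS19, with a median of 0.52.

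Markers of cell types moved as follows beside the members. For PS19 minus WT, all 6 oligodendrocyte markers were higher with a median of 0.80, all 6 astrocyte markers with 0.56 and 5 of 6 microglial markers with 1.33, while 6 of 8 neuron markers were lower with -0.10 and 4 of 6 hippocampal neuron markers with -0.47. For PS19 Zbp1+/- minus PS19, the medians were -1.36, -0.61, -1.01, 0.35 and -0.15 in the same order of lists. The 5 choroid plexus markers had medians of -0.26 and -3.57 in the 2 comparisons, the 4 endothelial markers 0.30 and -0.18, and the 3 oligodendrocyte precursor markers 0.28 and -0.09. No marker of these lists was at 0 reads in any library. Summed FPKM of the lists in WT, PS19 and PS19 Zbp1+/- was 765.5, 1347 and 500.7 for oligodendrocytes, 348.3, 1163 and 382.1 for astrocytes, 76.5, 191.8 and 90.3 for microglia, 835.0, 723.8 and 1026 for neurons, 195.4, 147.4 and 145.2 for hippocampal neurons, and 3109, 1899 and 10.4 for choroid plexus. The part of cell composition in the members' differences was not tested.

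**Figure D4:**
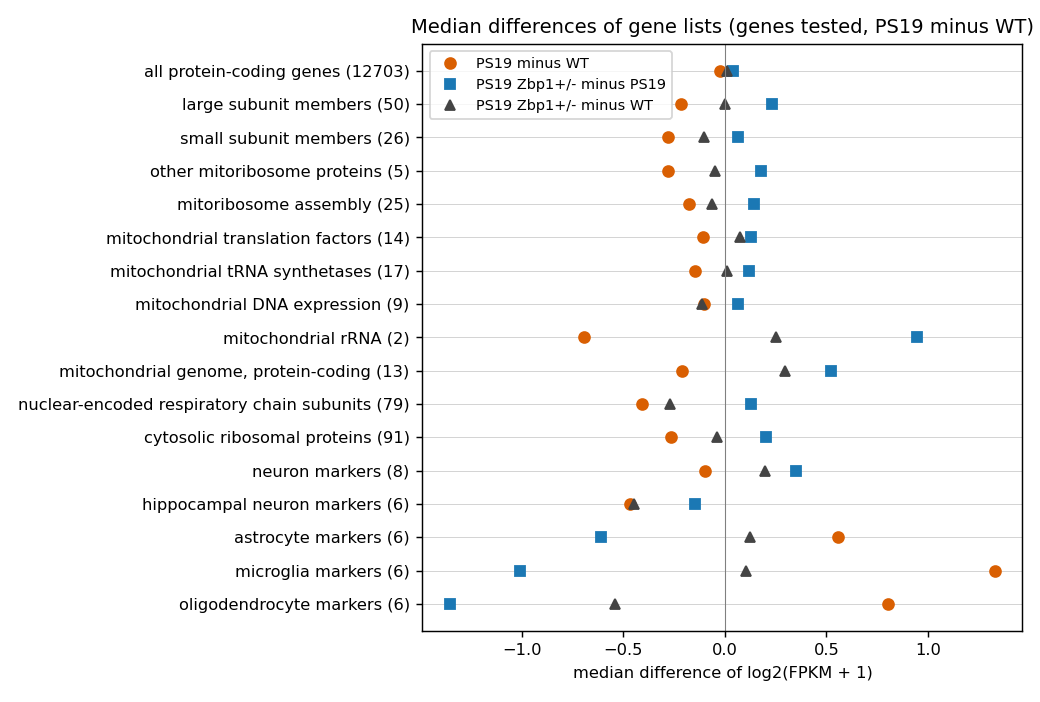
Median difference of log2(FPKM + 1) of each gene list in the 3 comparisons, with the number of genes tested in parentheses. The members of both subunits lie left of 0 for PS19 minus WT and right of 0 for PS19 Zbp1+/- minus PS19 in the deposited scale (their joint median is 0.18, and -0.05 after rescaling to the same sum), while glial lists lie on the opposite sides.

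Counting was uncertain for some members. A total of 25 of 78 overlap another protein-coding gene of the table, namely Mrpl13, Mrpl14, Mrpl18, Mrpl19, Mrpl21, Mrpl24, Mrpl27, Mrpl33, Mrpl36, Mrpl40, Mrpl44, Mrpl46, Mrpl47, Mrpl48, Mrpl49, Mrpl53, Mrpl9, Mrps11, Mrps18a, Mrps24, Mrps25, Mrps30, Mrps34, Mrps6 and Mrps7. Of the 78, 17 have over 10% of their exon bases in exons of other genes. Besides those named above, the largest overlaps were 69.8% of Mrps25 with Nr2c2, 36.0% of Mrpl19 with Gcfc2, 30.5% of Mrps18b with the antisense gene Gm16279 and 26.3% of Mrpl24 with Rrnad1, all on the opposite strand. Whether counting used the strand is not given in the sources used here. Without the overlapping members, 51 of 53 were lower in PS19 than in WT, with a median of -0.24, and 40 of 53 were higher in PS19 Zbp1+/- than in PS19 in the deposited scale, with a median of 0.18. The remaining members, given by their range, lay between -0.67 and 0.04 in PS19 minus WT, between -0.49 and 0.77 in PS19 Zbp1+/- minus PS19, and between -0.81 and 0.48 in PS19 Zbp1+/- minus WT, as bounded by the genes named above.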

How the data were processed

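RNA of 3 hippocampal libraries was analysed from 1 table of FPKM values deposited by the authors, 1 column per library. Per the submitters' processing notes, Trim Galore 0.6.5, STAR 2.5.3a and featureCounts 2.0.4 were used with build mm39, although 98.3% of the table's gene positions found in GENCODE M21 equal those of that GRCm38 release. Annotation release, strand and counting options are not given in the sources used here. Multiplying FPKM by gene length gave whole reads for 100% of values (within 0.05 reads). The steps imply library sizes of 17253479, 17287957 and 15826984 reads for WT, PS19 and PS19 Zbp1+/-, against 16746085, 16400328 and 17109734 recovered reads, so the deposited values carry a further scaling. All sample columns were used.

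Differences are of log2(FPKM + 1), computed here from the deposited values, and understate the change of low genes. They are over protein-coding genes with FPKM of at least 1 in either library. Neighbours in head-to-head pairs were not filtered this way. A call is 1.3-fold (0.38 on the log2 scale). Read ratios use the implied library sizes and exact Clopper-Pearson intervals from scipy 1.17.1 in Python 3.11.15. Reads were not collapsed by molecular identifiers, so they need not be separate molecules. Near-identical pseudogenes (at least 90% identity over 200 bases) were found with BLAST 2.17.0. Named members are the 5 highest and 3 lowest by mean FPKM, the 5 largest increases and decreases of each comparison among members with at least 50 reads, the Mrps18 genes and, from each partner list, the 2 largest changes each way. Others were named after their values were seen. The members and lists were chosen with earlier results of these data known. The calculations were tested on simulated data.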

Additional observations from a re-analysis of the deposited data

How the results depend on the processing

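No paired analysis was possible because each genotype has 1 library. Leaving out a library would leave a comparison without an arm. For PS19 minus WT, where the members' median was -0.238 and 16 were lower, the median was -0.272 with a pseudocount of 0.1, -0.125 rescaled to the same sum (TPM), -0.213 scaled by total reads, -0.114 corrected for gene length, -0.273 as read ratio and -0.152 corrected for GC content and length. The count lower was 7 under TPM, 4 by length and 6 by GC content and length. In the same order, 5.16%, 5.57% and 5.72% of all genes were lower at 1.3-fold. For PS19 Zbp1+/- minus PS19 (median 0.181, 16 higher, 1 lower), the median was 0.217 with a pseudocount of 0.1, -0.052 under TPM, 0.027 by total reads, 0.134 by length, 0.222 as read ratio and 0.143 without chromosome 17. The count higher was 2 under TPM and 5 by total reads, and the count lower 11 under TPM and 4 by total reads. Of all genes, 7.96% under TPM and 11.1% by total reads were higher at 1.3-fold, and 34.6% and 28.4% were lower. The count lower was 2 with a pseudocount of 0.1, by length, as read ratio and by GC content and length. Over all genes the share lower in those settings ran from 20.8% to 24.1%. For PS19 Zbp1+/- minus WT (median -0.039, 2 higher, 12 lower), the median was -0.175 under TPM, -0.174 by total reads, 0.010 by length, 0.007 by GC content and length and -0.076 without chromosome 17. The count higher was 0 under TPM and by total reads, 4 by length, 5 by GC content and length, and 1 without overlapping members or without chromosome 17. Of all genes, 9.39% under TPM, 9.52% by total reads, 15.5% by length and 11.7% by GC content and length were higher. The count lower was 20 under TPM and by total reads and 6 by GC content and length. Beside these, 23.3% of all genes were lower under TPM and by total reads, and 12.9% by GC content and length. At 2-fold every count was 0. The corrections for GC content, the overlap and the chromosome were added after seeing the data. The cause of these changes was not tested. Of 819 values of single named genes under the alternatives, 764 moved by no more than 0.5 of the width of their counting interval, 55 by more, and 0 of those past 1.3-fold changed sign. These alternatives include settings that only choose genes (by low values, mean FPKM, overlap or chromosome 17). Such settings cannot move the value of a single gene, so part of the 764 was fixed in advance and the count overstates stability.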
